A study of Homo sapiens with 12 samples.

Results

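The Ephrin receptors EPHA1, EPHA2, EPHA4, EPHB2, EPHB3 and EPHB4 were examined in H3K27ac CUT&RUN peak lists of HCT116 cells, an established line from a colorectal carcinoma in which MAPK signaling is active. They are 6 of 20046 protein-coding genes in the GENCODE annotation of hg38. Regions were built only from peaks among the 20000 highest-scoring of any library, so weaker peaks formed no region. Among the regions, members were assigned by position alone. The rule was a place within 1 kb or 50 kb of any transcript start of a member or inside its gene body. Of the 38598 H3K27ac regions of the series, 33 met that rule. Of the 33, EPHA2 had 11, EPHB2 had 7, EPHB4 had 6, EPHB3 had 4, EPHA1 had 3 and EPHA4 had 2. The cells were untreated, exposed to Cobimetinib (1 μM, 24 hours), which inhibits the MAPK kinase MEK1, or exposed to TNFα (100 ng/mL, 24 hours), a cytokine acting through NF-κB and AP1. All were grown in the same serum-containing medium, and each condition has 2 replicates. This is 1 cell line at 1 dose and 1 time. The paper states that the libraries came from treatment replicates. The labels do not say whether these were grown as separate cultures, so part of the spread between them may be technical.

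Eph receptors are receptor tyrosine kinases that bind ephrins held on the membrane of a neighboring cell, and the contact can signal into both cells. In the intestinal epithelium EPHB2 and EPHB3 are Wnt target genes that keep proliferating and differentiated cells apart along the crypt. EPHA2 is raised in many carcinomas and is a known target of RAS and MAPK signaling. H3K27ac, acetylation of histone H3 at lysine 27, marks active promoters and enhancers. In CUT&RUN a nuclease tethered by the antibody cuts DNA around the mark, and the fragments set free are sequenced.

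In place of a signal each library has a list of peaks with a score, and values are ranks, where rank 1 is the highest-scoring peak of the library's own list. A region ranks better where its best peak lies nearer the top of the list. The sequences shown here are those at which the results below turn, the promoters of the members with the strongest regions and the intronic and distal regions whose rank differed most between treated conditions. EPHA2 and EPHB2 promoters contrast in CG dinucleotides, which are in capitals in the 250 bases upstream of each start (RefSeq, GRCh38.p14). EPHA2 lies on the minus strand of chromosome 1 and EPHB2 on the plus strand.
EPHA2 promoter, chr1:16156070-16156319, minus strand: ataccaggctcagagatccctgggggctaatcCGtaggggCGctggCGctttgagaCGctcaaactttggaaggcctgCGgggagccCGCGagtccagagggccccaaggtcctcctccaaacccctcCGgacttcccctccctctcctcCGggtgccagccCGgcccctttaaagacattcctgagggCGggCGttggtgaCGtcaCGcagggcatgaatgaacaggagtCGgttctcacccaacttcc
EPHB2 promoter, chr1:22710589-22710838, plus strand: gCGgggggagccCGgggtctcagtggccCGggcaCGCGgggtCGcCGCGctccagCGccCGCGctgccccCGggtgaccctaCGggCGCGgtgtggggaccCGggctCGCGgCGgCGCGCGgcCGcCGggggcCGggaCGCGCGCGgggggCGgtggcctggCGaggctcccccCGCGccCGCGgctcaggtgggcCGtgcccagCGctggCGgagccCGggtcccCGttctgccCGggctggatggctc
The EPHA2 run holds 15 CG dinucleotides and the EPHB2 run 41. With the first 50 transcribed bases the counts were 20 and 48, against a median of 14 over 35116 RefSeq promoters of that length. The AP1 word (TGACTCA or TGAGTCA, each the reverse complement of the other) and the TCF word (CTTTGAT or CTTTGAA, either strand) were not in any of the members' promoter windows. They occurred in 4.95% and 6.86% of all promoters.

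Over the whole of each region, the AP1 word lay in 13 of the 33, as it did in 32.3% of all regions, and the TCF word lay in 3, against 26.6%. A word is a description of the sequence and no evidence of binding. The windows below carry it in capitals, on the plus strand of hg38, in the 4 regions that differed most between TNFα and Cobimetinib libraries and in the EPHA2 region with the start of a shorter transcript.
EPHB2 intron 3, chr1:22832173-22832273: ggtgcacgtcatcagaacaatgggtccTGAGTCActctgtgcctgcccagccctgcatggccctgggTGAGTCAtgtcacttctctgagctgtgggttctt
EPHA2 upstream, chr1:16164288-16164348: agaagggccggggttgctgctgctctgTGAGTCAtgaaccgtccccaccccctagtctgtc
EPHA2 intron 3, near a shorter transcript, chr1:16145715-16145775: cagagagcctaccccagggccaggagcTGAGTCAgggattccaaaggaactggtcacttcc
EPHA2 intron 3, deeper in the gene, chr1:16138891-16138951: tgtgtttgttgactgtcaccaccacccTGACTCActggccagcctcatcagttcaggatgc
EPHB3 intron 1, chr3:184565967-184566027: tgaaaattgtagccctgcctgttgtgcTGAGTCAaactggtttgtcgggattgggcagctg
The EPHB2 intron 3 region holds 2 AP1 words whose starts are 40 bp apart. Among 4183 regions within 10% of its width, 15.2% had at least as many. A word was common in regions as wide as the other windows' regions, from 32.6% of those like the EPHB3 intron 1 region to 82.1% of those like the wide EPHA2 intron 3 region. The words were present in regions that ranked better under TNFα (the first 3) and in regions that ranked better under Cobimetinib (the last 2).

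The lists held between 69813 and 124771 peaks, and read depth is unknown from them. Untreated replicate 2 stood apart. The median width of its 20000 highest peaks was 380 bp, against 922 to 1265.5 bp in the others, and 7102 of its peaks were tied at the last score taken, against at most 533 elsewhere. Its peak names mark it as merged after resequencing. It held 14 member regions among its 20000 highest peaks, 5 of them held by no other library. The counts against untreated cells, and the differences from untreated stated below for member regions, are therefore given with and without it. At the epithelial markers KRT8, EPCAM, CDX2, KRT18, CDH1 and KRT19 a promoter peak was among the 20000 highest in 6, 5, 4, 3, 2 and 1 libraries. The 2 at CDH1, which encodes E-cadherin, were the Cobimetinib libraries, where its promoter region ranked 9959 and 14802.5. Its differences from untreated (3.03, limma adjusted p = 0.285) and of TNFα from Cobimetinib (−3.09, limma adjusted p = 0.247) missed the threshold, and its part in the members' results was not tested. VIL1 and CDX1, which mark differentiated intestinal cells, had no promoter peak in any library. Among markers of other cell types, 6 had no promoter peak among the 20000 highest of any library, PECAM1 had one in 1 library and COL1A1 in all 6. In a bulk culture, fewer cells with the mark and less mark per cell cannot be told apart.

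EPHA2 was the one member with strong promoter acetylation in all conditions. Its best peak within 1 kb of a start ranked 2519 and 1704.5 in the untreated libraries, 5461 and 1405.5 with Cobimetinib, and 1804 and 1092 with TNFα. Among the 20046 genes this placed EPHA2 at 1758.5 and 834, at 3544.5 and 975, and at 990 and 451.5. The 1704.5 in untreated replicate 2, and so the place of 834, is that of a peak in intron 3, at the start of a shorter transcript. The region over exon 1 ranked 4125.5 in that library. Each EPHA2 rank was better than the best rank of any other member in any library. EPHA2 was thus 1 of 6 members with a promoter peak among the 20000 highest of all 6 libraries, which 25.8% of protein-coding genes had. Ranks of best peaks are not scaled by length, but the starts of EPHA2 with 1 kb on each side cover 6020 bp, less than those of every other member except EPHB3, at 6003 bp.

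The other 5 members had weak promoter peaks, and their ranges overlapped, so no order among them is given. Their ranks too are those of the best peak within 1 kb of any start, which can lie at different starts in different libraries. EPHA1, the founding member of the family, ranked 11407 and 26242 in untreated, 17447 and 18832 in Cobimetinib, and 28373 and 44788.5 in TNFα libraries. The 18832 is that of a peak in intron 16, and the region over exon 1 ranked 19677.5 in that library. EPHB4, an ephrin-B2 receptor best known from veins, ranked 14392.5 and 113876, 18655 and 61369, and 18596.5 and 22018 in the same order. Both TNFα ranks of EPHA1 were worse than the other 4, and at EPHB4 the conditions overlapped. EPHB2 ranked 21910 in untreated replicate 1, had no peak in replicate 2, and ranked 18279 and 17073.5 with Cobimetinib and 24212.5 and 25159 with TNFα. EPHB3 had no promoter peak among the 20000 highest of any library, and its best rank was 21910, in untreated replicate 1. EPHA4, a receptor for ephrins of both classes, reached the 20000 highest in Cobimetinib replicate 2 alone, at rank 19677.5. Its remaining promoter peaks ranked between 32909 and 86479, and untreated replicate 2 and TNFα replicate 2 had none.

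The regions around the members ranged from 9 that were held by all 6 libraries to 15 that were held by 1. Of all regions, 20.5% were held by all 6 libraries and 40.6% by 1. For 25 regions the nearest protein-coding start was the member's own. The other 8 included the strongest regions assigned to EPHA1 and EPHB4, which lie over the starts of ZYX and of SLC12A9, TRIP6 and SRRT, and 2 regions nearer ARHGEF19 than EPHA2. Rows of the rank plot for EPHA2 and EPHB2 reach furthest to the left among regions nearest the members' own starts.

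**Figure D1:**
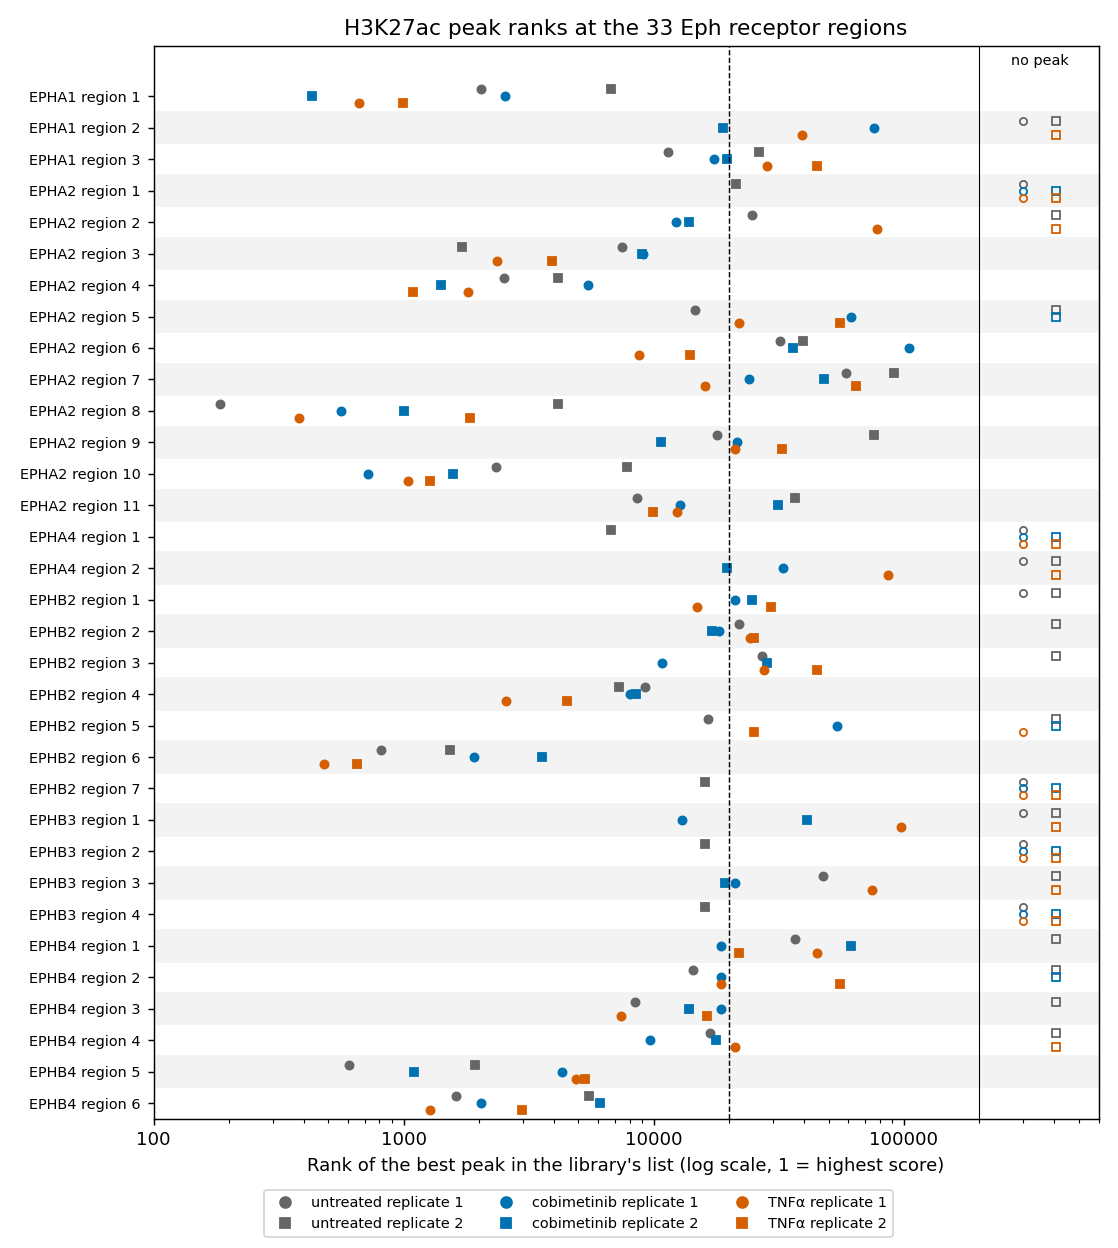
Rank of the best H3K27ac peak in each library's list (log scale, 1 is the highest score) for the 33 regions, with circles for replicate 1 and squares for replicate 2, open symbols where the library has no peak, and a dashed line at rank 20000. EPHA2 region 8, EPHA2 region 10 and EPHB2 region 6 lie left of the dashed line in all 6 libraries, while 5 regions have a peak in untreated replicate 2 and in no other library.

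At EPHA2 the regions are numbered along the chromosome, from inside the gene (regions 2 to 4) to far upstream (region 11). Region 8, chr1:16172566-16174213, lies 16497 bp upstream of the start between genes and had the best mean rank of the distal EPHA2 regions. It ranked 184 and 4125.5 in untreated, 561 and 1003.5 in Cobimetinib and 381 and 1845.5 in TNFα libraries. The untreated pair spanned all 4 treated values. Region 8 thus kept a high place under either treatment, with a difference of −0.16 between TNFα and Cobimetinib (95% interval −2.05 to 1.73, limma, on a −log2 scale of rank). Region 4, chr1:16154753-16157081, covers exon 1 and the start, and ranked 2519 and 4125.5, 5461 and 1405.5, and 1804 and 1092. Both TNFα values were better than both untreated values, while the Cobimetinib pair spanned the untreated one.

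Region 3 of EPHA2, chr1:16143592-16147566, lies in intron 3 and overlaps the start of a shorter EPHA2 transcript with no defined coding sequence. It ranked 7442.5 and 1704.5 in untreated, 9042.5 and 8982.5 in Cobimetinib, and 2357.5 and 3915 in TNFα libraries. Both Cobimetinib ranks were worse than the other 4, and TNFα and untreated ranks overlapped. On the −log2 scale, where positive values are nearer the top of the list and 1 unit is a change of rank by a factor of 2, TNFα minus Cobimetinib was 1.57 (SE 0.86, limma adjusted p = 0.538). Its best peak spanned 2815 and 2371 bp with TNFα, 2216 and 626 bp with Cobimetinib, and 3823 and 426 bp in untreated cells. Cobimetinib minus untreated was −1.34 (SE 0.86, limma adjusted p = 0.624). It turned to 1.76 when a peak had to cover 50% of the region. That is the value obtained when untreated replicate 2 counts as having no peak there and is placed just past the end of its list. The difference was −0.28 without untreated replicate 2 and −2.40 without untreated replicate 1, so its size depended on which untreated library was kept.

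Region 6, chr1:16164117-16164965, lies between genes 8048 bp upstream of EPHA2. It ranked 31859.5 and 39474.5 in untreated and 104850 and 36157 in Cobimetinib libraries, and 8692 and 13924 with TNFα. It was among the 20000 highest peaks in both TNFα libraries and in none of the other 4. TNFα minus Cobimetinib was 2.48 (SE 1.11, limma adjusted p = 0.377), and TNFα minus untreated was 1.69 (SE 1.11, limma adjusted p = 0.642). The latter was 1.53 without untreated replicate 2. Its best peak spanned 849 and 631 bp with TNFα, against 350 and 423 bp with Cobimetinib.

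Region 2, chr1:16138897-16140311, in intron 3 but deeper in the gene, went the other way. It ranked 24740.5 in untreated replicate 1 and had no peak in replicate 2, ranked 12310 and 13770 with Cobimetinib, and ranked 78037.5 in TNFα replicate 1 with no peak in replicate 2. Both Cobimetinib ranks were better than those of every other library. TNFα minus Cobimetinib was −2.71 (SE 1.17, limma adjusted p = 0.347), where a library with no peak was placed just past the end of its list. These regions of EPHA2 intron 3 thus had opposite orders of the treated libraries. Region 10, chr1:16181210-16182673, ranked 2330.5 and 7788.5 in untreated libraries and between 718 and 1576 in the 4 treated ones. It is nearer the start of ARHGEF19 than that of EPHA2.

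**Figure D2:**
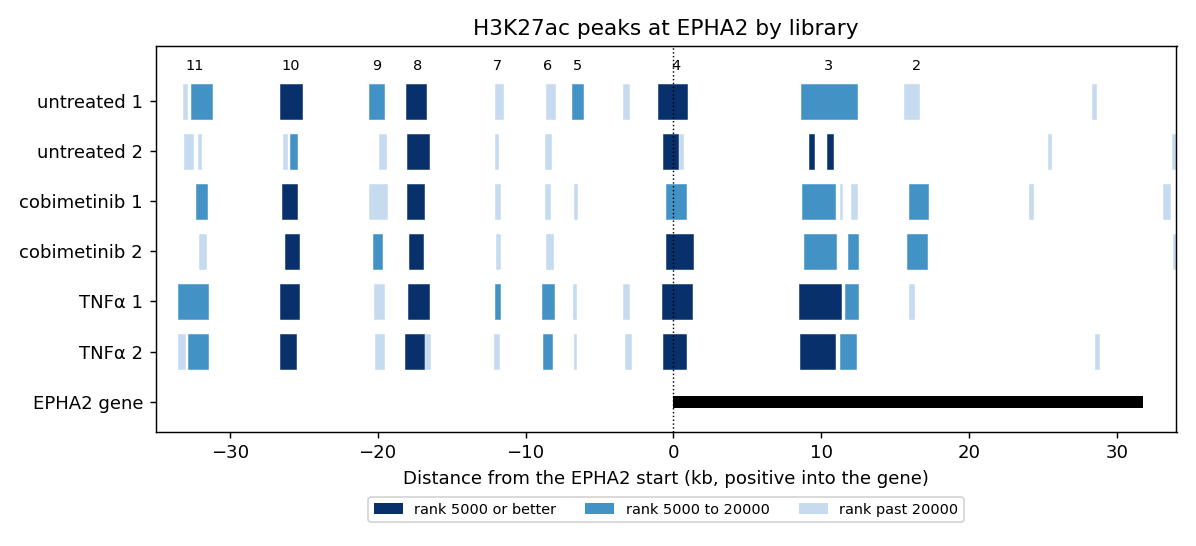
H3K27ac peaks of the 6 libraries by distance in kb from the EPHA2 start (positive into the gene, black bar), colored by rank in the library's own list, with the numbers of the merged regions above. Regions 4, 8 and 10 have a peak in every library, and region 6 is among the 20000 highest peaks in the TNFα libraries alone.

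EPHB2 differed from EPHA2 in having its strong regions far inside the gene. Region 6 of EPHB2, chr1:22831270-22833117, lies in intron 3, 31030 bp from the nearest annotated start. It ranked 813 and 1527 in untreated, 1910 and 3566 in Cobimetinib, and 478.5 and 651.5 in TNFα libraries, so the 3 conditions did not overlap. It was the one member region ordered TNFα, untreated, Cobimetinib without overlap, as were 1.76% of all regions. Between TNFα and Cobimetinib the difference was 2.22 (SE 0.92, 95% interval 0.42 to 4.02, limma adjusted p = 0.305). TNFα minus untreated was 1.00 (SE 0.92) and Cobimetinib minus untreated −1.23 (SE 0.92), with limma adjusted p = 0.642 and 0.653. Without untreated replicate 2 these were 0.54 and −1.68, and without untreated replicate 1 they were 1.45 and −0.77, none of them past the threshold. The width of its best peak did not separate the conditions, at 1549 and 1204, 1432 and 1454, and 1833 and 1413 bp.

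Region 4 of EPHB2, chr1:22750160-22751325, in intron 1, was chosen for mention after its values were seen. It ranked 9201 and 7276 in untreated, 8067.5 and 8460 in Cobimetinib, and 2563 and 4512 in TNFα libraries. Both TNFα ranks were better than the other 4, and Cobimetinib and untreated ranks overlapped. Its difference between TNFα and Cobimetinib was 1.28 (SE 0.87, limma adjusted p = 0.687), and no AP1 word was found in it. EPHB2 region 2, chr1:22710339-22710777, ends 62 bp before the start and has the ranks given above for the promoter. It was among the 20000 highest peaks of both Cobimetinib libraries and of no other library. Region 1, 21188 bp upstream, had no peak in either untreated library, ranked 21039 and 24638.5 with Cobimetinib and 14847 and 29394 with TNFα. TNFα minus untreated was 2.32 (SE 1.16, limma adjusted p = 0.642), which rests on the place given to libraries without a peak. It was 2.06 without untreated replicate 2 and 2.58 without untreated replicate 1.

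**Figure D3:**
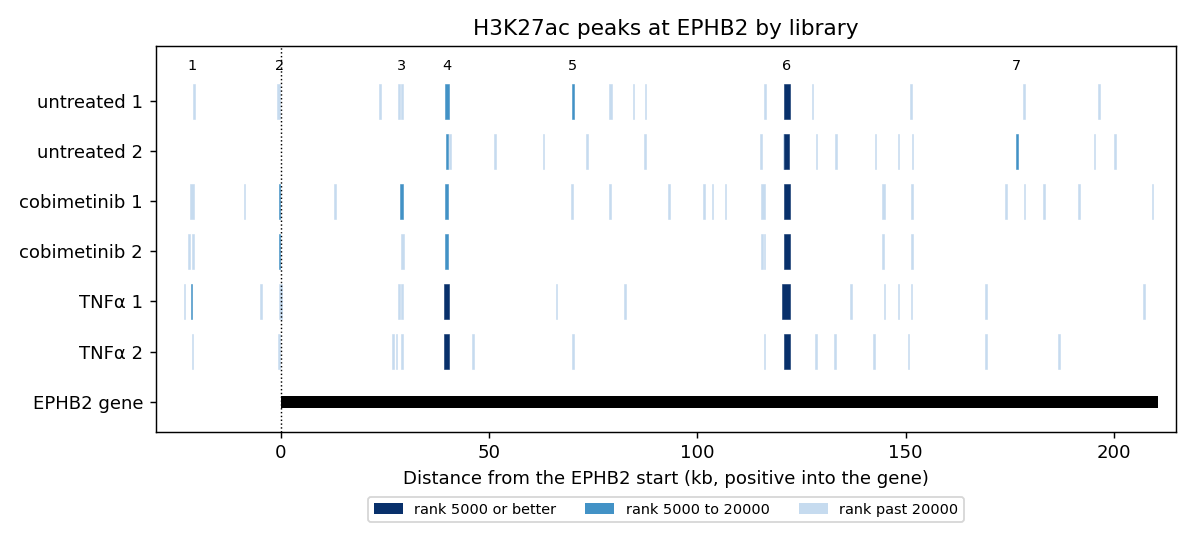
H3K27ac peaks of the 6 libraries by distance in kb from the EPHB2 start (positive into the gene, black bar), colored by rank in the library's own list, with the numbers of the merged regions above. Region 6 ranks better than 5000 in all 6 libraries, while the peaks at the start (region 2) rank between 17073.5 and 25159 and are absent from untreated replicate 2.

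The remaining members had regions near rank 20000 or over a neighbor's promoter. EPHB3 region 3, chr3:184565503-184566126, in intron 1, ranked 47575 in untreated replicate 1, 21039 and 19222.5 with Cobimetinib and 74761.5 in TNFα replicate 1, and the second untreated and TNFα libraries had no peak. EPHB3 region 1, 37405 bp upstream, ranked 12932.5 and 40971 with Cobimetinib and 97281 in TNFα replicate 1, and the other 3 libraries had no peak. In both regions the Cobimetinib ranks were better than those of all other libraries. The difference between TNFα and Cobimetinib was −2.05 at region 3 (95% interval −4.40 to 0.30) and −2.04 at region 1 (−4.42 to 0.33), with limma adjusted p = 0.580 and 0.588. Without untreated replicate 1 both passed, at limma adjusted p = 0.0415 and 0.0454, where 12.1% of all regions were called. Neither passed without untreated replicate 2 (limma adjusted p = 0.0852 and 0.0592) or with the treated libraries alone (0.0941 and 0.0815). EPHB3 regions 2 and 4 were peaks of untreated replicate 2 alone.

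EPHA4 region 2, chr2:221572447-221573190, just upstream of the main start, had the same order, with no peak in either untreated library, and ranks of 32909 and 19677.5 with Cobimetinib and 86479 in TNFα replicate 1. The difference between TNFα and Cobimetinib was −1.82 (SE 1.21, limma adjusted p = 0.672). EPHA4 region 1 was a peak of untreated replicate 2 alone, at rank 6729.5. At EPHA1, region 3, chr7:143408455-143409266, covers exon 1 and ranked 11407 and 26242, 17447 and 19677.5, and 28373 and 44788.5. Both TNFα ranks were worse than the other 4. EPHA1 region 2 in intron 16 had no untreated peak and ranked 75663.5 and 18832 with Cobimetinib and 39180.5 in TNFα replicate 1. Region 1 of EPHA1 lies over the start of ZYX, a focal adhesion protein, and ranked 2046 and 6729.5 in untreated and 664.5 and 998 in TNFα libraries, with Cobimetinib at 2533 and 431.5.

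At EPHB4 the start is shared by a transcript of SLC12A9 on the other strand, so that region 1 in intron 1 and region 2 before the start lie within 1 kb of starts of both genes. Region 1 ranked 36734 in untreated replicate 1, 18655 and 61369 with Cobimetinib and 44927.5 and 22018 with TNFα. Region 2 ranked 14392.5 in untreated replicate 1, 18655 in Cobimetinib replicate 1 and 18596.5 and 55390.5 with TNFα. Region 5, over exons of TRIP6, a LIM-domain protein, ranked 606.5 and 1936.5 in untreated, 4278 and 1099 in Cobimetinib and 4895.5 and 5334.5 in TNFα libraries. Both TNFα ranks were worse than the other 4. TNFα minus untreated was −2.24 (SE 0.87, limma adjusted p = 0.407), and without untreated replicate 2 it was −3.07 (limma adjusted p = 0.0237), where the lone untreated library is assumed to vary like the other groups. Without untreated replicate 1 it was −1.40 (limma adjusted p = 0.185). Region 4, over exon 1 of SLC12A9, ranked 9656.5 and 17683 with Cobimetinib, and 21200.5 in TNFα replicate 1 with no peak in replicate 2.

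To ask what MEK1 inhibition did at these genes, Cobimetinib was compared with untreated cells. No library is labeled as treated with the vehicle (DMSO) alone, so an effect of the vehicle was not tested. No member region was called by limma at an adjusted p of 0.05, against 1.09% of all regions. An unadjusted p under 0.05 was reached by 2 of 33 member regions and by 9.79% of all regions. Both Cobimetinib libraries ranked better than both untreated libraries at 9 of 33 member regions, against 19.3% of all regions. Both untreated libraries ranked better at 2, EPHA2 region 3 and EPHB2 region 6, against 10.7%. Without untreated replicate 2 the counts were 10 and 12, and 24.0% and 31.5% over all regions, so the balance between directions turned when that library was left out. Without untreated replicate 1, which leaves the untreated arm with that library alone, limma called 19 member regions and 18198 of all regions. The highest 20000 peaks of both Cobimetinib libraries and neither untreated library held 2 member regions (3.92% of all regions), EPHA2 region 2 and EPHB2 region 2, and the reverse held for 0 (1.60%). With untreated replicate 1 as the one untreated library these were 2 (4.72%) and 2 (8.33%). The median difference was 0.22 on the −log2 scale over the members and 0.17 over all regions, and 0.01 over both without untreated replicate 2. That 0.01 is the value that the lengths of the lists give a region without a peak in any library compared. With rank as a percent of the list the medians were −0.06 and −0.10.

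TNFα was compared with untreated cells in the same way. limma called no member region, against 0.643% of all regions, and 4 of 33 member regions and 7.35% of all regions had an unadjusted p under 0.05. Both TNFα libraries ranked better at 7 of 33 regions, 3 at EPHA2, 3 at EPHB2 and 1 at EPHA1, against 16.9% of all regions. Both untreated libraries ranked better at 2, EPHA1 region 3 and EPHB4 region 5, against 9.25%. Without untreated replicate 2 these counts were 8 and 13, against 21.9% and 32.2%. Without untreated replicate 1 they were 18 and 8, against 43.5% and 34.6%. Besides the differences given above, EPHA1 region 1 differed by 2.19, EPHA4 region 1 by −2.10 and EPHA2 region 10 by 1.89. Without untreated replicate 2 these differences were 1.33, −0.25 and 1.02. EPHA2 region 6 was the 1 region among the 20000 highest of both TNFα and neither untreated library (3.56% of all regions), and the reverse held for 0 (1.00%). Against untreated replicate 1 alone these were 1 (4.40%) and 5 (7.26%). The median difference was 0.40 over the members and 0.01 over all regions, and −0.25 over both without untreated replicate 2. That −0.25 is again the value that list lengths give a region without a peak in any library compared.

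The direct comparison of TNFα with Cobimetinib does not use the untreated values, though all 6 libraries defined the regions and the spread. limma called no member region, against 1.55% of all regions, and 3 of 33 member regions and 10.2% of all regions had an unadjusted p under 0.05. Both TNFα libraries ranked better at 6 regions, 4 of 11 at EPHA2 and 2 of 7 at EPHB2, against 19.9% of all regions. Both Cobimetinib libraries ranked better at 8, 1 each at EPHA1, EPHA2, EPHA4 and EPHB2 and 2 each at EPHB3 and EPHB4, against 21.7%. Both totals lie near the background, and the split between members was not tested. One region, EPHA2 region 6, was among the 20000 highest of both TNFα and neither Cobimetinib library (5.41% of all regions). The reverse held for 4 (4.39%), EPHA1 region 3, EPHA2 region 2, EPHB2 region 2 and EPHB4 region 4. The median difference was −0.16 over the members and −0.26 over all regions, and the latter is also the value that the lengths of the lists give a region without a peak in any treated library. With rank as a percent of the list the medians were 0.10 and 0.00.

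When the 4 treated libraries were fitted alone, an alternative chosen after seeing the data, limma called 3 of 33 member regions, against 9.17% of all regions. They were EPHA2 region 2 (adjusted p = 0.0237), EPHA2 region 6 (adjusted p = 0.0368) and EPHB2 region 6 (adjusted p = 0.0288), with the differences given above and SEs of 0.85, 0.83 and 0.71. These 3 also passed without untreated replicate 2, where 9.88% of all regions were called. Without untreated replicate 1 (12.1% of all regions) and with libraries weighted by quality (14.3%), limma called 5 member regions, these 3 and EPHB3 regions 1 and 3. The quality weights were 0.28 for the untreated pair against 1.68 and 2.12 for Cobimetinib and TNFα. With 2 libraries per condition both get the same weight, so the weights cannot single out untreated replicate 2. The number of member regions called is near the share of all regions called in each of these fits. EPHA2 region 2 entered the set of regions through the Cobimetinib libraries alone, and EPHA2 region 6 through the TNFα libraries alone. EPHB3 regions 1 and 3 each entered through 1 Cobimetinib library. Calls of these regions between the treatments are therefore not independent of how regions were chosen. EPHB2 region 6 was among the 20000 highest peaks of all 6 libraries.

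**Figure D4:**
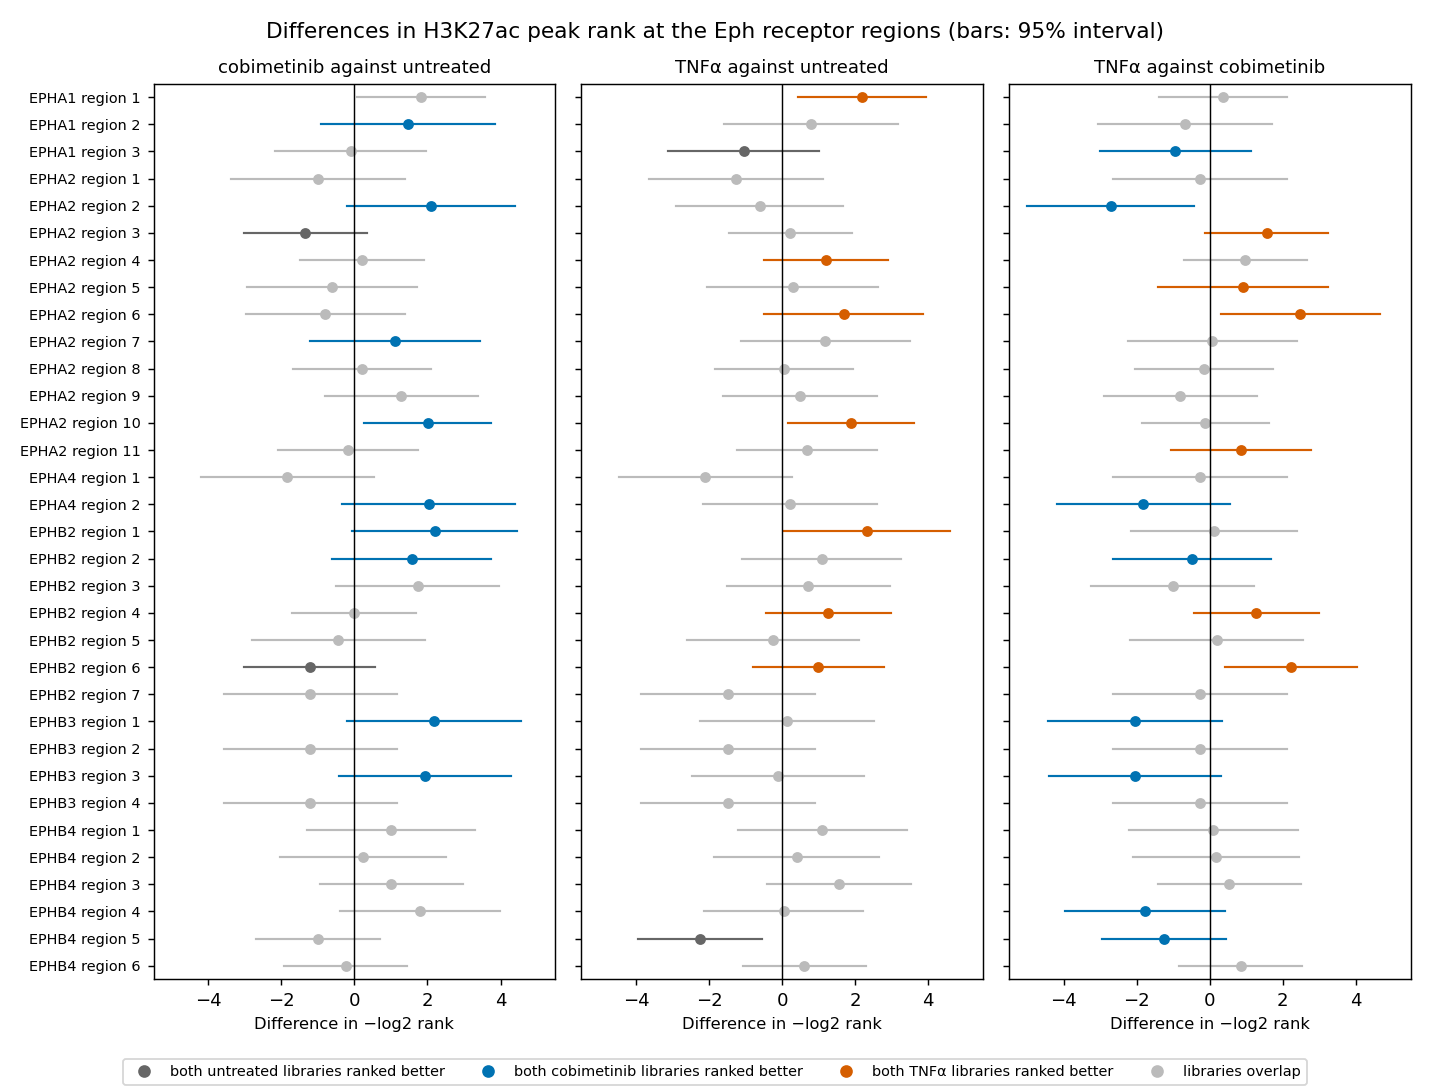
Difference in −log2 rank for each region in the 3 comparisons (points, with 95% intervals from limma as bars, positive where the first-named condition ranked better), colored where both libraries of 1 condition ranked better than both of the other. In the comparison of TNFα with cobimetinib the orange points lie at EPHA2 and EPHB2, and every interval not crossing 0 belongs to EPHA2 region 2, EPHA2 region 6 or EPHB2 region 6.

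Among the 19 member regions with a peak in all 4 treated libraries, the best peak was wider in both TNFα than both Cobimetinib libraries at 8, against 20.2% of all regions with such peaks. Of these 8, EPHA2 had 5 (regions 3, 6, 8, 10 and 11), EPHB2 had 2 (regions 2 and 4) and EPHB4 had 1 (region 6). Peaks were wider in both Cobimetinib libraries at 2 (EPHA1 region 1 and EPHB2 region 3), against 24.8%. At EPHA2 region 8 the widths were 1421 and 1308 bp with TNFα and 1180 and 967 bp with Cobimetinib, although the ranks overlapped. Widths were not tested.

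The rest of the pathway was followed at promoters by lists of genes. None of the 8 other Eph receptors had a promoter peak among the 20000 highest of any library. Of the 8 ephrin ligands, EFNA3 had such a peak in all 6 libraries and EFNA2 and EFNB3 had none. In all 6 libraries, 25.8% of protein-coding genes had one. Of the 6 ligands with a promoter region, 2 ranked better in both TNFα libraries than both Cobimetinib libraries and 2 the reverse. Over all regions the shares were 19.9% and 21.7%. Ranks here are those of the region that overlaps the promoter. EFNB2, the ligand of EPHB4, ranked 9343 and 7893.5 with Cobimetinib against 15717.5 and 30493.5 with TNFα, but its best peaks within 1 kb of a start ranked 54201 and 7893.5 against 15717.5 and 36059, which overlap. EFNA5 ranked 9191.5 and 16379 with TNFα against 32909 and 20099.5. limma called none of them in any comparison.

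Of 12 signaling partners 6 had a promoter peak among the 20000 highest of all 6 libraries, against 25.8% of protein-coding genes. Of the 10 with a promoter region, 3 ranked better in both TNFα libraries than in both Cobimetinib libraries (19.9% of all regions). The reverse held for 3 (21.7%), and limma called none in any comparison. NGEF, the exchange factor ephexin that acts downstream of EPHA4, ranked 1209.5 and 3965.5 with TNFα and 9807.5 and 19677.5 with Cobimetinib. Its untreated ranks, 1217 and 12386, overlapped the TNFα values. TNFα minus Cobimetinib was 2.67 (SE 0.86, limma adjusted p = 0.0940). RASA1, the RAS GTPase-activating protein that binds Eph receptors, ranked 4756 and 8000 with Cobimetinib and 16693.5 and 28317.5 with TNFα (difference −1.82, SE 0.94, limma adjusted p = 0.496).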

How the data were processed

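H3K27ac CUT&RUN was performed on 6 libraries, 2 per condition. The 6 IgG libraries are not analysed here. Per the study's methods and processing notes, the authors aligned reads to hg38 with BWA (0.7.15) and called peaks with MACS2 (2.1.1) in each library without IgG background, in paired-end and single-end mode, then joined the modes with the larger score of each peak. The score in the deposited lists is thus the value the authors gave. It rises with depth, so it served for ranking within a list (ties at their mean rank). Peak chromosomes and ends were checked against hg38, and genes come from GENCODE release 44.

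The 20000 highest peaks of each library (ties in file order) were merged within 100 bp into regions. A region took the rank of its best overlapping peak in the full list, and a library without one took the place after its last peak. limma (3.58.1, eBayes with trend) was fitted to −log2 rank over all 6 libraries, two-sided, with Benjamini-Hochberg adjustment over all 38598 regions. The residual degrees of freedom were 3 and the prior was infinite, so the spread is that of regions of similar mean rank. The script was tested on simulated data. The study's DESeq2 comparison needs read counts, not analysed here. A count of groups that do not overlap required peaks in both better libraries. For 2 libraries against 2 an exact permutation test cannot reach 0.05, so no such p is given.

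The members, gene lists and comparisons were chosen with earlier results of these data known. All 6 members were described, with regions within 1 kb of a start, the best distal region of each member, and the 12 regions (of 18) with the widest difference of 1 log2 unit or more among those that did not overlap in a comparison. Alternatives covered the number of peaks, score and overlap minimum, rank scale, ties, windows, weights, a replicate block and each replicate left out. One marker gene of another cell type is not reported here.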

Additional observations from a re-analysis of the deposited data

Results flagged for a closer look

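EPHB2 region 6, in intron 3, ranked on opposite sides of the untreated libraries under the treatments. Both Cobimetinib ranks were worse than both untreated ranks and both TNFα ranks were better, and TNFα minus Cobimetinib was 2.22 on the −log2 rank scale. TNFα minus untreated was 1.00 and Cobimetinib minus untreated −1.23, and neither passed (limma adjusted p = 0.642 and 0.653). The difference between the treatments was tested by limma and missed the threshold with all 6 libraries (adjusted p = 0.305). It passed with the 4 treated libraries alone (adjusted p = 0.0288). That fit was chosen after seeing the data, and 9.17% of all regions were called in it. Of all 38598 regions, 678 had the same order without overlap, and 447 had the opposite order.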

How the results depend on the processing

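Untreated replicate 2 differed most from the rest, and read depth and the IgG background are not known from the lists, so the rank of a peak is the limit of what can be compared. Rank differences of regions with missing peaks rest on where a library without a peak is placed.

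The number of regions called over the series changed with nearly every choice. In the order Cobimetinib against untreated, TNFα against untreated and TNFα against Cobimetinib, 421, 248 and 597 were called, 1, 9 and 214 with the highest 10000 peaks, 23, 18 and 5516 with library quality weights, 156, 140 and 278 without a trend, 89, 57 and 80 where peaks had to cover 50% of a region, 4, 17 and 262 with rank as a percent of the list, and 16, 8 and 123 with scores of 50 or more. With the highest 40000 peaks, Cobimetinib against untreated gave 265. With ranks among regions, the first 2 gave 33 and 68. The treated libraries alone gave 3539 for the third, an alternative chosen after seeing the data. Leaving out 1 library gave 43 to 18198, 8 to 16511 and 78 to 4668, and the highest values came without untreated replicate 1.

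Of the member regions, 14 were left with the highest 10000 peaks and 71 with the highest 40000. In the order Cobimetinib over untreated, untreated over Cobimetinib, TNFα over untreated, untreated over TNFα, TNFα over Cobimetinib and Cobimetinib over TNFα, 9, 2, 7, 2, 6 and 8 member regions did not overlap. The shares of all regions were 19.3%, 10.7%, 16.9%, 9.25%, 19.9% and 21.7%, and those of the alternatives are in parentheses. Without libraries lacking a peak, a condition could be left with 1 library. Cobimetinib over untreated became 1 with the highest 10000 peaks (22.4%). It became 5 without libraries lacking a peak (19.7%) and 5 with scores of 50 or more (16.9%). Untreated over Cobimetinib became 6 without libraries lacking a peak (17.3%) and 1 with 50% cover (5.43%). Untreated over TNFα became 10 without libraries lacking a peak (16.9%). It became 1 with the highest 10000 peaks (13.5%), scores of 50 or more (5.89%), 50% cover (4.55%) or windows of 25 kb (9.25%). Cobimetinib over TNFα became 2 with the highest 10000 peaks (26.0%) and 5 with rank as a percent of the list (15.4%). Leaving out 1 library, which makes separation easier, gave 10 to 18, 3 to 12, 8 to 18, 2 to 13, 8 to 12 and 8 to 14.

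A replicate block gave 479, 258 and 643 regions called and moved no count by over 1.5 times. Replicate numbers were shared without a stated pairing, and the correlations of replicate deviations were 0.15, 0.15 and 0.086. The difference of EPHA2 region 3, Cobimetinib minus untreated, reversed to 1.76 with 50% cover. That is the value obtained when untreated replicate 2 counts as having no peak there and is placed just past the end of its list. Of 335 alternative values for the differences of named regions, 307 kept direction and side of the threshold and 27 became significant. Without untreated replicate 1, 10 of these were calls against the lone untreated replicate 2. Of 180 alternative values at promoters, 22 changed sign. Rank among regions, 50% cover and the number of highest peaks could not be applied to promoter differences.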
